A study of Rattus norvegicus and Ovis aries with 113 samples.

Results

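The pons of 5 sheep was compared with 9 other dissected regions of the same brains by RNA sequencing. The pons libraries are the 5 brain libraries labelled as pons, of 50 sheep brain libraries and 113 libraries in the whole series, and no measured value was used to choose them. The animals were post-pubertal male sheep, numbered 687, 688, 690, 694 and 699, with no treatment, and each gave 1 library from each of pons, cerebellum, basal ganglia, hippocampus, entorhinal cortex, frontal cortex, motor cortex, prefrontal cortex, posterior parietal cortex and visual cortex, all from the same hemisphere. All groups are therefore untreated male tissue of the same 5 animals, and the sperm libraries of these sheep and the rat libraries were not used here. The labels give no strain, no age beyond puberty and no side of the brain, and the dissected extent of the pons in each sheep is not given in the sources used.

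The pons is the part of the hindbrain that lies in front of the cerebellum. Its ventral part holds the pontine nuclei, excitatory relay neurons that send cortical signals to the cerebellum, crossed by large bundles of myelinated axons on their way between cortex, cerebellum and spinal cord. Its dorsal part, the tegmentum, holds cranial motor and sensory nuclei, the noradrenaline neurons of the locus coeruleus, serotonin neurons of the raphe and glycine neurons. Hindbrain cells carry a positional code from development, in which HOX genes mark successive segments from the rear forward, engrailed genes mark the boundary with the midbrain, and EMX and DLX genes mark the forebrain.

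Values are CPM, counts per 1e+06 counts of a library whose total was scaled by the trimmed mean of M values (TMM), and values of the 5 pons libraries are always given in the order of sheep 687, 688, 690, 694 and 699. Totals, without 4 placeholder entries that held 4.92 to 10.5% of the pons counts, were 46.3 to 53.4 M counts in pons and 42.4 to 66.7 M counts in the other 45 libraries. Between 15573 and 16583 genes reached 1 CPM in the pons libraries, and 15323 to 16462 in the others. Log-scale values of the pons libraries correlated across genes at a median of 0.965 with one another, and at 0.932 with hippocampus, 0.931 with entorhinal cortex and 0.906 with cerebellum, where genes are not independent replicates. The pons of sheep 694 had a TMM factor of 1.19, against 0.926 to 0.983 in the other 4. Among 171 genes chosen for this text, it was the far value for 22 of the 37 in which 1 pons library lay far from the rest. It also had more genes at 1 CPM, 16583, than any other library compared here. By correlation across all tested genes alone, it did not stand apart. Its median correlation with the other pons libraries was 0.960, between 0.958 for sheep 699 and 0.968 for sheep 688.

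Pons differed from the mean of the other 9 regions in 4026 of 21144 tested genes (19.0%), with 2068 calls to the higher side (9.78%) and 1958 to the lower side (9.26%). These shares are the background for the count of every gene list below. A call required an adjusted p below 0.05 in edgeR's quasi-likelihood test with the sheep as a block and the Benjamini-Hochberg adjustment over all genes tested, and a log2 fold change of at least 1 in size. The median log2 fold change of all genes tested was 0.035. Higher calls were 51.4% of the total in this contrast, which weights each region equally on the log scale, and 39.6% (1545 higher, 2358 lower, of 22397 genes tested) when the counts of the 9 regions were first summed within each sheep, so that a gene abundant in 1 other region weighs more. Without sheep 694 the counts were 2016 higher and 2313 lower. These tests compare 5 animals, and in tissue RNA a smaller number of cells of a type and less RNA per cell cannot be told apart.

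Fewer genes separated pons from every region at once. Called in the same direction against each of the 9 regions were 535 genes higher (2.53%) and 346 genes lower (1.64%), which became 535 and 494 without sheep 694 and 382 and 245 without sheep 699. The 5 pons libraries lay above all 45 others for 209 genes (0.988%) and below all of them for 396 (1.87%). By single region, the cerebellum gave the most calls, 4551 higher (21.5%) and 2596 lower (12.3%) in pons. Entorhinal cortex gave 1171 higher (5.54%) and 1862 lower (8.81%), and hippocampus 1215 higher (5.75%) and 1748 lower (8.27%), the lowest 2 totals of the 9. The other 6 regions gave 1960 to 2526 genes higher and 2194 to 2491 lower, at 10.3% and 10.4% for basal ganglia, 11.9% and 11.8% for frontal cortex, 9.67% and 10.8% for motor cortex, 10.5% and 11.4% for prefrontal cortex, 9.27% and 11.0% for posterior parietal cortex and 10.8% and 11.3% for visual cortex.

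**Figure D1:**
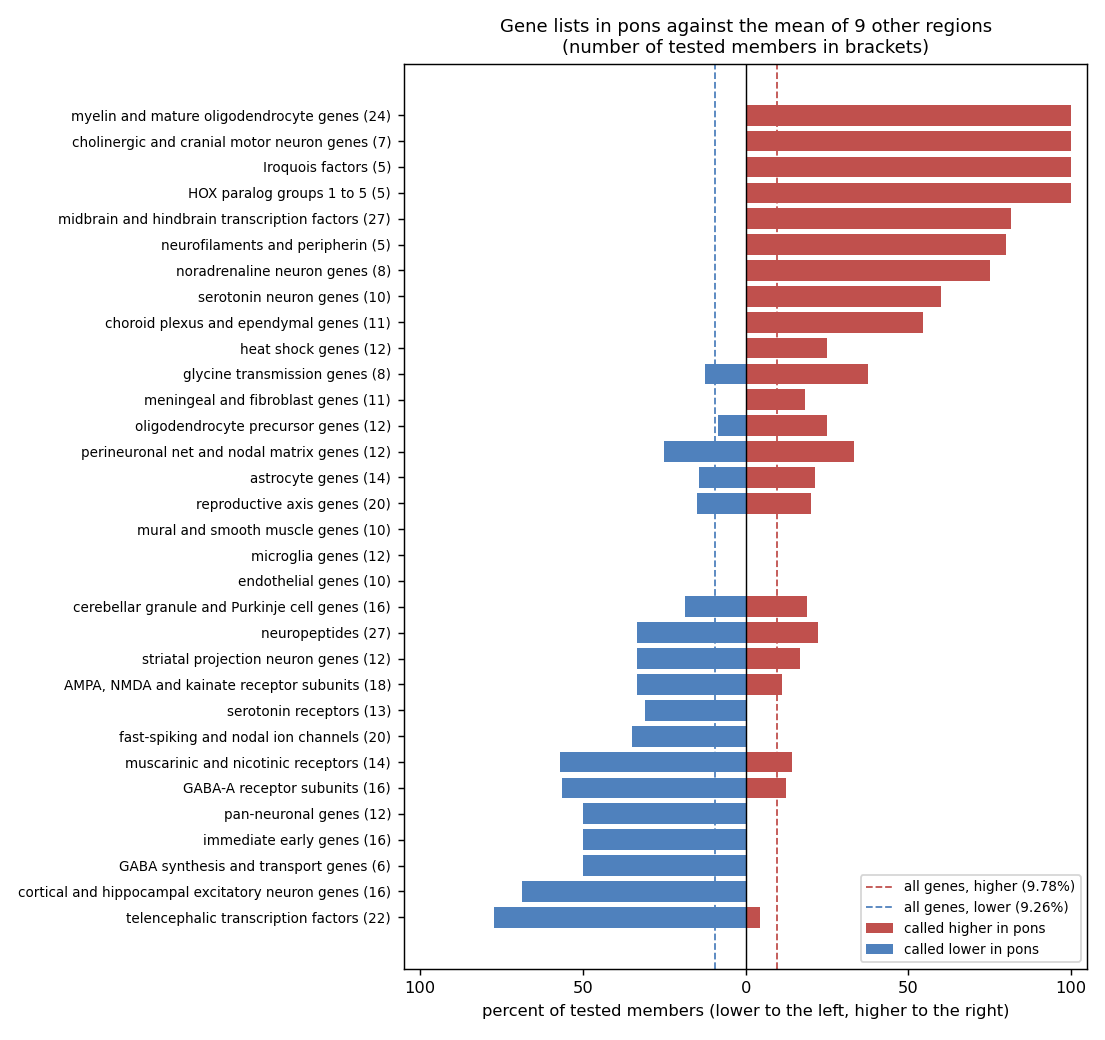
Percent of the tested members of each gene list that were called higher (bars to the right) or lower (bars to the left) in pons against the mean of the other 9 regions, with the share over all genes tested as dashed lines (9.78% higher, 9.26% lower). Lists with at least 5 tested members are shown, from the 24 myelin genes, all called higher, to the 22 telencephalic transcription factors, of which 17 were called lower.

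Of the 3 markers of the label, IRX2 alone separated every pons library from every other library. IRX2, a transcription factor of the Iroquois family that patterns the hindbrain, stood at 27.9, 10.1, 5.98, 12.9 and 4.90 CPM, against at most 4.71 CPM elsewhere. It was higher than each of the 9 regions, with a log2 fold change of 6.78 ± 0.41 (SE) against their mean (edgeR adjusted p 2.49e-16), and the nearest region was the cerebellum at 3.66 ± 0.628 CPM (SD, n = 5). TPH2, the enzyme that makes serotonin in brain, stood at 0.817, 5.11, 23.0, 2.78 and 14.4 CPM. Sheep 690 exceeded all libraries of the other regions, and the other 4 pons libraries lay within their range of 0.203 to 15.7 CPM. The log2 difference was 3.29 ± 0.37 (edgeR adjusted p 1.84e-09), 2.58 without sheep 690, and pons was called above 8 regions but not above basal ganglia (6.52 ± 5.28 CPM, SD, n = 5). With the 9 regions summed the value was 2.05 (adjusted p 0.127). SLC6A5, the glycine transporter of glycine neurons, stood at 0.397, 31.0, 22.1, 2.53 and 0.468 CPM, so that sheep 688 and 690 lay above all other libraries and the other 3 lay within their range. This was a difference of 4.22 ± 0.41 on the log2 scale (edgeR adjusted p 6.50e-11), 3.37 without sheep 688 and 3.50 without sheep 690. Pons was not called against cerebellum (8.5 ± 2.44 CPM, SD, n = 5), and with the regions summed the value was 1.41 (adjusted p 0.397). All 3 markers were called, and 2 of them were not above the other regions in every animal.

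The Iroquois factors were higher in pons. All 5 tested members of the 6 in the family were called higher, at a median log2 fold change of 6.78. IRX3 was even across the animals, at 4.08, 5.27, 7.41, 6.21 and 5.64 CPM, a log2 difference of 7.21 ± 0.36 (adjusted p 6.68e-19 in edgeR). IRX5 stood at 3.06, 3.98, 3.21, 5.26 and 4.63 CPM (7.03 ± 0.29, edgeR adjusted p 1.78e-21). The cerebellum averaged 5.24 CPM of IRX3 and 3.34 CPM of IRX5, and pons was called above the other 8 regions but not above cerebellum for IRX1, IRX3, IRX5 and IRX6. With the regions summed, so that the cerebellum weighs more, IRX3 gave 3.10 and IRX5 3.23 (adjusted p 0.000222 and 0.000242).

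HOX genes of paralog groups 1 to 5 were higher in pons, and which of them were present depended on the animal. Of 14 measured, 5 passed the low-count filter, and all 5 were called higher than each of the 9 regions, at a median log2 fold change of 3.46. The other 9, HOXA2 and HOXA4 among them, did not pass this filter, which drops genes present in few libraries even where their level is high. With no filter, HOXA2, HOXA3, HOXB3, HOXA4, HOXD4, HOXA5, HOXB5 and HOXC5 were called higher by edgeR. Their log2 fold changes, from 4.63 (HOXB3) to 9.94 (HOXB5), depend on the prior count where regions have no counts. HOXD1 stood at 5.46, 4.16, 6.31, 2.03 and 7.91 CPM (log2 fold change 3.14 ± 0.38, edgeR adjusted p 6.76e-09), and only sheep 694 overlapped the others.

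Further HOX genes split the 5 animals. HOXA2 stood at 4.69, 5.51, 9.10, 0.138 and 0.449 CPM and HOXB2 at 5.67, 4.51, 9.30, 0.483 and 0.683 CPM, so that sheep 687, 688 and 690 were high and sheep 694 and 699 low. HOXA4 showed the same split, at 12.8, 4.10, 16.9, 0.0172 and 0.273 CPM, against at most 0.0774 CPM in any other region. HOXB5, a marker of the rear hindbrain, was largely a feature of sheep 690, at 0.0933, 1.17, 27.7, 0.0862 and 0 CPM. HOXB4 and HOXD3 were both highest in sheep 690, and their log2 fold changes of 3.46 and 4.75 became 1.90 and 3.86 without it, both still called by edgeR. HOXB4 was not called with the regions summed (2.25, adjusted p 0.145). None of the 24 measured HOX genes of groups 6 to 13, which mark the spinal cord, passed the low-count filter. Their summed level was 0 to 0.457 CPM in 4 pons libraries and 6.31 CPM in that of sheep 690, against at most 0.142 CPM elsewhere.

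The engrailed genes and LHX9 were highest in sheep 694. EN1, the engrailed factor of the midbrain and front hindbrain, stood at 0.373, 0.418, 0.511, 20.3 and 6.97 CPM, and EN2 at 0.420, 1.17, 1.2, 26.3 and 3.83 CPM, highest in sheep 694, then 699. Both overlapped the other libraries, and cerebellum averaged 10.6 CPM of EN1 and 151 ± 15.9 CPM of EN2 (SD, n = 5). Against the mean of the regions the log2 fold changes were 4.94 ± 0.58 for EN1 (edgeR adjusted p 3.66e-09) and 5.96 ± 0.62 for EN2 (edgeR adjusted p 2.46e-10). With the regions summed they were 0.07 and -3.02, so their direction rests on how the cerebellum is weighted, and without sheep 694 they were 3.04 and 4.91. LHX9, a factor of dorsal midbrain and diencephalic neurons, stood at 0, 0.756, 0, 27.4 and 0.117 CPM. Its call rested on sheep 694, without which the log2 fold change of 5.79 became 1.55 (adjusted p 0.233). PAX2 and GBX2, also factors of the midbrain and hindbrain boundary, had another order. PAX2 stood at 0.0467, 4.47, 3.79, 1.26 and 0.996 CPM, highest in sheep 688 and 690, and GBX2 at 1.12, 1.73, 5.90, 0.948 and 0.39 CPM, highest in sheep 690.

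Of 27 tested midbrain and hindbrain factors, 22 were called higher and none lower, at a median log2 fold change of 2.76. Without sheep 694, 18 were called higher, and with the regions summed 9 were higher and 3 lower of 29. The 3 were EN2, LHX1 and BARHL2, all highest in cerebellum. FOXB1, a forkhead factor of the embryonic brainstem and diencephalon, is not on this list. The rule for named genes picked it from genes whose pons libraries exceed all others, so that separation is no result. FOXB1 stood at 5.18, 6.82, 5.45, 10.1 and 5.13 CPM, against at most 2.61 CPM in any other library (hippocampus highest). Its summed-region value was 6.02 (edgeR adjusted p 0.000913). It had no counts in 2 whole regions. NKX6-1, a ventral hindbrain factor, stood at 2.45, 1.61, 6.41, 2.52 and 5.76 CPM, all above the highest other library (1.04 CPM), a log2 difference of 3.23 ± 0.23 (adjusted p 2.84e-14 in edgeR). LMX1B, needed for serotonin neurons, was at 0.0700 CPM in sheep 687 and 2.13 to 3.60 CPM in the other 4 (4.18 ± 0.36, edgeR adjusted p 3.39e-12). GATA3, a factor of ventral inhibitory neurons and of raphe cells, was highest in sheep 694 at 6.57 CPM and 0.895 to 1.65 CPM in the others (2.33 ± 0.28, edgeR adjusted p 7.89e-09).

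Of 22 telencephalic transcription factors, 17 were called lower and 1, SIX3, higher, at a median log2 fold change of -3.97. With the regions summed, 21 were called lower and none higher. Among those not called were DLX6 (-6.79) and SP9 (-2.22), for which the contrast with the mean gave no usable standard error. Each of these was called lower against 8 of the 9 single regions. TBR1 and EMX1, factors of cortical excitatory neurons, and DLX1, a factor of forebrain inhibitory neurons, were each below 0.05 CPM in all 5 pons libraries. LHX2 and EMX2 were not as even: sheep 694 held 8.26 and 2.28 CPM, where the other 4 held at most 0.994 and 0.0586 CPM. Their log2 fold changes of -3.95 and -4.19 became -6.43 and -8.86 without that sheep. Leaving out sheep 687 gave EMX2 -3.65 without a call, which may be a failed test and is not read as dependence on that sheep. SIX3, a factor of the rostral forebrain, stood at 0.0233, 0, 0.118, 12.9 and 0.0586 CPM. Its call as higher (2.66 ± 0.85, edgeR adjusted p 0.00798) rested on sheep 694, without which the value was -1.67, and with the regions summed it was -5.04.

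**Figure D2:**
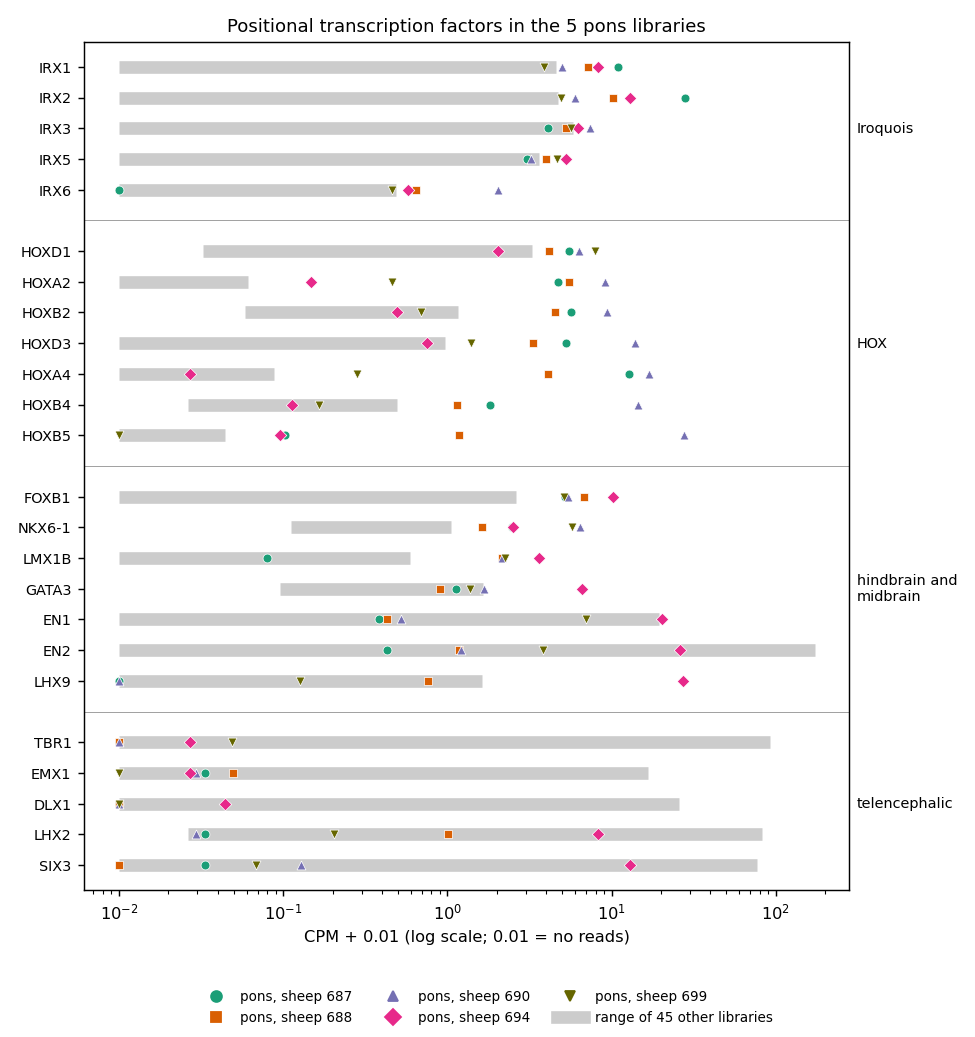
CPM plus 0.01 (log axis) of positional transcription factors in the pons of each of the 5 sheep (coloured symbols), with the range of the 45 other brain libraries as a grey bar. HOXA2, HOXA4 and HOXB4 are high in sheep 687, 688 and 690 and low in sheep 694 and 699, EN1, EN2, LHX9 and SIX3 are highest in sheep 694, and IRX2 lies above the grey bar in every animal.

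Most serotonin genes were higher in pons, and TPH2, SLC6A4 and DDC were highest in sheep 690 and then 699. Of 10 genes tested, 6 were called higher, at a median log2 fold change of 2.76, and 5 of them higher than each region. SLC6A4, the serotonin transporter, stood at 0.257, 0.696, 4.54, 0.741 and 2.77 CPM, with sheep 687 alone inside the range of the others (3.28 ± 0.33, edgeR adjusted p 1.48e-10, and 2.47 without sheep 690). DDC, which makes serotonin and dopamine from their precursors, stood at 6.88, 6.34, 18.5, 6.34 and 16.3 CPM, all above the highest other library (3.13 CPM), a log2 difference of 2.79 ± 0.21 (adjusted p 1.56e-13 in edgeR). SLC18A2, which loads monoamines into vesicles, stood at 0.863, 5.43, 1.65, 3.34 and 6.07 CPM (2.77 ± 0.25, edgeR adjusted p 6.50e-12). FEV, the factor that defines serotonin neurons, reached only 0, 0.258, 1.22, 0.224 and 0.468 CPM (2.76 ± 0.45, edgeR adjusted p 2.42e-06), and with the regions summed its adjusted p was 0.0538. HTR1A, the receptor by which these neurons inhibit themselves, was not called (-0.58 ± 0.38, edgeR adjusted p 0.207). With the regions summed, 4 of the 10 genes were called higher.

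Noradrenaline genes marked different animals. Of 8 tested, 6 were called higher, at a median log2 fold change of 2.46. Among the 6, DDC and SLC18A2 are also counted among the serotonin genes. MAOA, at 1.06, was not called without the cerebellum (0.91), without sheep 688 (0.86) or 694 (0.97), or with the regions summed (0.94). SLC6A2, the noradrenaline transporter, stood at 0.163, 16.9, 0.295, 16.8 and 0.761 CPM, so that sheep 688 and 694 were high and the other 3 lay in the range of the other regions. DBH, which turns dopamine into noradrenaline, was also highest in sheep 688 and 694, at 1.28, 7.69, 0.826, 15.7 and 0.761 CPM. Their log2 fold changes were 5.58 ± 0.59 (edgeR adjusted p 3.97e-10) and 2.14 ± 0.36 (edgeR adjusted p 4.43e-06). SLC6A2 gave 4.32 without sheep 688 and 4.94 without sheep 694, and DBH 1.10 without sheep 694. TH, the first enzyme of catecholamine synthesis, stood at 0.187, 8.09, 0.452, 10.3 and 24.2 CPM, high also in sheep 699, where SLC6A2 and DBH were low. TH had no counts in the whole cerebellum, and its summed-region value was 3.71 (adjusted p 0.0553). Summing the regions ended the calls of SLC6A2 (adjusted p 0.0861) and DBH (0.291) as well.

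Cholinergic and cranial motor genes were higher in pons and differed widely among the 5 animals. All 7 tested members of 10 were called higher, at a median log2 fold change of 8.19, and 9 of the 10 measured were highest in sheep 690. Their summed level was 3.73, 177, 844, 18.1 and 4.37 CPM. PRPH, an intermediate filament of motor and peripheral neurons, stood at 0.0233, 42.3, 375, 3.24 and 0.586 CPM, against at most 0.365 CPM in any other library, and only sheep 687 overlapped them. Its log2 fold change of 8.72 ± 0.65 (edgeR adjusted p 7.22e-14) became 6.38 without sheep 690. CHAT, which makes acetylcholine, stood at 0, 9.82, 61.6, 2.07 and 0.586 CPM, and SLC5A7, the choline transporter, at 3.15, 60.5, 198, 5.65 and 1.56 CPM. Only sheep 690 for CHAT, and sheep 688 and 690 for SLC5A7, exceeded the basal ganglia, which hold cholinergic interneurons and reached 14.0 and 27.5 CPM. The log2 fold changes were 5.99 ± 0.53 and 8.73 ± 0.44 (edgeR adjusted p 5.56e-12 and 8.95e-19), or 4.52 and 7.34 without sheep 690. CALCA, which encodes the peptide CGRP of motor and parabrachial neurons, stood at 0.373, 36.1, 88.4, 1.02 and 0.293 CPM, with no counts in 3 whole regions and a summed-region value of 8.32 (edgeR adjusted p 0.0037). With the regions summed, 3 of 8 genes tested were called, at a median of 2.76. Summing ended the calls of PRPH (5.64, adjusted p 0.0642), CHAT (2.09, adjusted p 0.209), SLC18A3 (2.56, adjusted p 0.236), ISL1 (2.57, adjusted p 0.0762) and CALCB (2.39, adjusted p 0.219), and left SLC5A7 at 2.95 (adjusted p 0.0436).

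Neurofilament genes were also highest in sheep 690. Of 5 genes for neurofilaments and peripherin, 4 were called higher, each against all 9 regions. NEFH, the heavy neurofilament of thick axons, stood at 455, 876, 3245, 166 and 60.8 CPM. Sheep 690 held the most, and sheep 694 and 699 lay within the range of the other regions (9.95 to 292 CPM). The log2 fold change was 3.42 ± 0.35 (edgeR adjusted p 2.19e-10) and 2.07 without sheep 690. NEFM, at 1461, 1566, 6089, 385 and 201 CPM, gave 2.55 ± 0.35 (edgeR adjusted p 8.84e-08) and 1.33 without sheep 690. NEFL gave 1.38 ± 0.24 (edgeR adjusted p 6.80e-06), and 0.66 without sheep 690, which ended its call. INA, a filament of small-calibre axons, was not called (-0.29 ± 0.17, edgeR adjusted p 0.141). With the regions summed none of the 5 was called, with NEFH at 2.2 (adjusted p 0.0540).

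Among the glycine genes, GLRA1, SLC6A5 and SLC6A9 were called higher and SLC32A1 lower, 3 and 1 of 8 tested, against 9.78% and 9.26% of all genes. GLRA1, the glycine receptor subunit of adult brainstem and spinal cord, stood at 34.4, 126, 168, 26.3 and 9.56 CPM, all above the highest other library (5.66 CPM). This was a difference of 4.59 ± 0.24 on the log2 scale (edgeR adjusted p 1.93e-18), with every region at 1.34 to 3.74 CPM on average, and it remained called with the regions summed (4.03, adjusted p 0.00397). SLC6A9, the glycine transporter of glia, stood at 169, 179, 109, 103 and 227 CPM, above the highest other library (93.3 CPM), a log2 difference of 1.57 ± 0.14 (adjusted p 1.01e-11 in edgeR). The subunits GLRA2 and GLRA3 and the scaffold GPHN were not called (-0.27, -0.62 and -0.65). GLRB, the beta subunit of the receptor, missed the fold threshold (-0.98 ± 0.21, edgeR adjusted p 0.000121) and was called lower with the regions summed (-1.02, adjusted p 0.0115), without the cerebellum, without sheep 688, 690 or 694, and with limma voom.

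Of 6 genes of GABA synthesis and transport, 3 were called lower, and SLC6A11, SLC6A13 and ABAT were not called (0.31, -0.06 and -0.26). GAD2, a GABA-making enzyme, stood at 0.560, 26.3, 14.7, 71.3 and 10.2 CPM, and only sheep 694 reached the range of the others (55.9 to 441 CPM). Pons was lower than each of the 9 regions, a log2 difference of -2.85 ± 0.40 (adjusted p 1.15e-07 in edgeR), or -3.68 without sheep 694. SLC32A1, which loads GABA and glycine into vesicles, stood at 0.303, 14.4, 17.4, 19.9 and 8.28 CPM and was likewise lower than each region (-2.09 ± 0.34, edgeR adjusted p 2.56e-06). Both were lowest in sheep 687. Of 16 GABA-A receptor subunits, 9 were called lower and 2 higher, at a median log2 fold change of -1.38. GABRA4 and GABRB2, subunits of forebrain receptors, were lower than every region, at -2.47 ± 0.22 and -2.25 ± 0.28 (edgeR adjusted p 8.05e-12 and 1.19e-08). GABRA6, a granule cell subunit, was called higher (5.49 ± 0.96, edgeR adjusted p 1.40e-05), but had no counts in a whole region and averaged 307 CPM in cerebellum against 1.76 CPM in pons, and the summed-region value was -4.70.

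The vesicular glutamate transporters differed from each other. SLC17A6, the transporter of most brainstem excitatory neurons, stood at 70.4, 49.8, 14.8, 122 and 6.11 CPM, a log2 difference of 2.00 ± 0.38 (adjusted p 2.83e-05 in edgeR). It was called above only cerebellum, basal ganglia and hippocampus (neocortical regions averaged 18.1 to 35.4 CPM), and not with the regions summed (0.97, adjusted p 0.165). SLC17A7, the transporter of cortical neurons and of pontine nuclei, stood at 113, 34.0, 7.10, 5.12 and 4.51 CPM, a log2 difference of -3.63 ± 0.54 (adjusted p 4.56e-07 in edgeR) that became -4.90 without sheep 687. Sheep 687 was also highest for BARHL1, a factor of rhombic lip derivatives such as the pontine nuclei, at 11.0, 2.13, 0.0787, 4.17 and 0.312 CPM. MGAM, an intestinal maltase that the named-gene rule picked, was also highest in sheep 687, at 56.2, 17.2, 2.87, 0.172 and 2.28 CPM. Its log2 fold change of 5.29 ± 0.59 (edgeR adjusted p 1.05e-09) became 3.59 without that sheep.

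**Figure D3:**
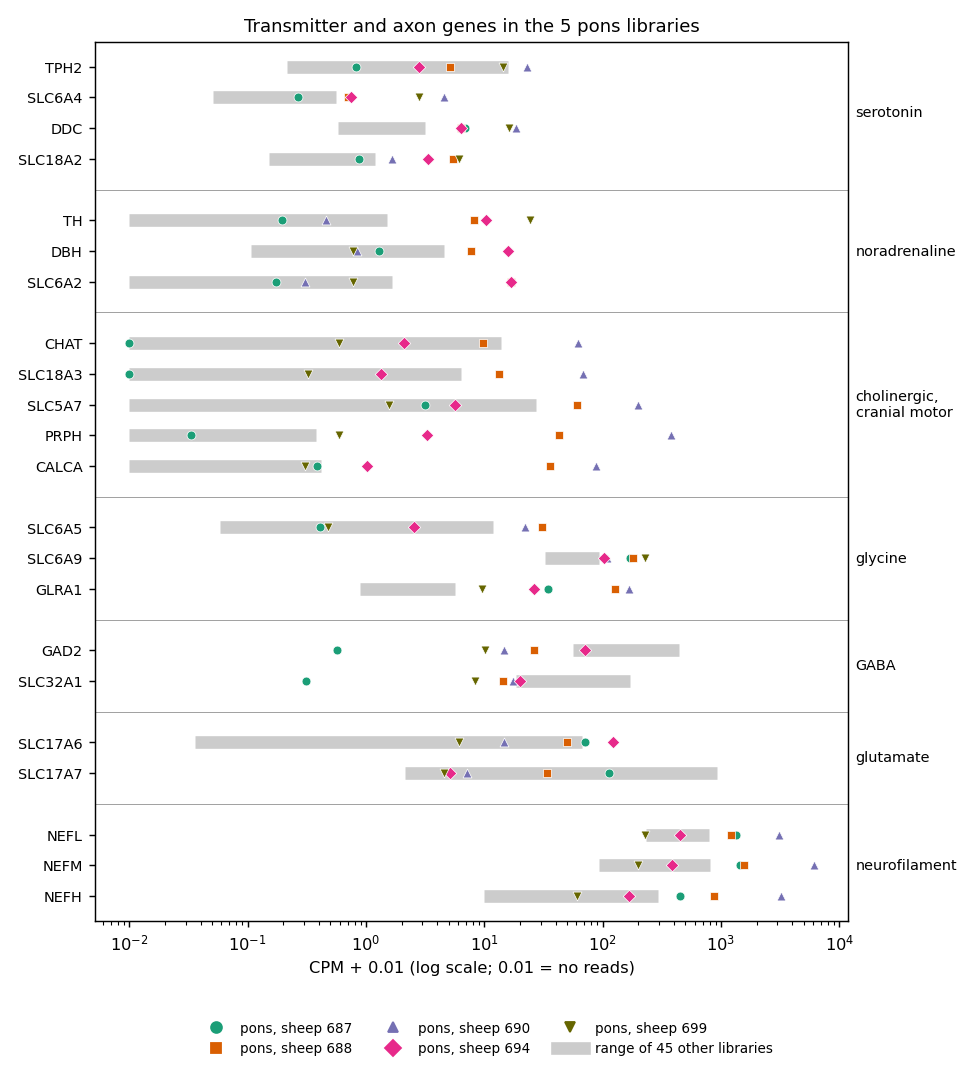
CPM plus 0.01 (log axis) of transmitter, receptor and neurofilament genes in the pons of each sheep (coloured symbols), with the range of the 45 other brain libraries as a grey bar. Motor genes such as PRPH and CHAT are highest in sheep 690, SLC6A2 and DBH in sheep 688 and 694 and SLC17A7 in sheep 687, while GLRA1, SLC6A9 and DDC lie above the grey bar in all 5 animals.

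Myelin genes were higher in pons. All 24 genes of myelin and mature oligodendrocytes were called higher, at a median log2 fold change of 2.63, and 23 of them against each of the 9 regions, OPALIN being the exception. All 24 were also called with any 1 sheep left out, with the cerebellum left out, and with the regions summed. MBP, the protein that compacts myelin, stood at 36713, 33078, 22911, 10912 and 48487 CPM (2.93 ± 0.39, edgeR adjusted p 4.39e-08). The highest other library held 23717 CPM of MBP, so that sheep 690 and 694 lay within the range of the others. UGT8, which makes the myelin lipid galactocerebroside, was above all other libraries at 753, 1012, 339, 333 and 1516 CPM (3.09 ± 0.28, edgeR adjusted p 7.49e-12).

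The amount of myelin RNA varied between animals. Sheep 699 was the highest for all 24 genes. The summed level of the list was 75654.5 CPM in sheep 687, 68180 in 688, 40367 in 690, 23127 in 694 and 113607 in 699, against 1915 to 41847 CPM in the other regions. In sheep 699 the 12 pan-neuronal genes summed to 894 CPM, against 2454 to 4105 CPM in the other 4 pons libraries. Of the 24 genes, CLDND1 and ASPA, at 1.24 and 1.64, were among the smallest increases and GJB1, a gap junction protein of oligodendrocytes, at 3.11 among the largest.

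Of 12 oligodendrocyte precursor genes, 3 were called higher and 1 lower, against 9.78% and 9.26% of all genes, at a median log2 fold change of 0.38. The single lower call is near the share over all genes. PDGFRA, the growth factor receptor that defines these cells, stood at 81.8, 109, 84.0, 107 and 117 CPM and was not called (0.03 ± 0.21, edgeR adjusted p 0.93). BCAS1, a marker of cells that begin to myelinate, was called higher than each region (2.67 ± 0.31, edgeR adjusted p 3.05e-09). OLIG1 was called at 1.04, but not without sheep 699 (0.85), without the cerebellum (0.84) or with the regions summed (0.99). CSPG5 was called lower, at -1.64 ± 0.13 (edgeR adjusted p 3.94e-13).

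Astrocyte genes moved in opposite directions. GFAP, the intermediate filament of fibrous and reactive astrocytes, stood at 14742, 19647, 18980, 15399 and 16177 CPM, all above the highest other library (6164 CPM). The log2 difference was 2.76 ± 0.18 (edgeR adjusted p 8.78e-16). S100B, a calcium-binding protein of astrocytes and oligodendrocytes, stood at 3579, 4725, 4784, 2756 and 3524 CPM, again above every other library (1.22 ± 0.14, edgeR adjusted p 3.37e-09). SLC1A2, the main glutamate transporter of forebrain astrocytes, was lower at 387, 879, 480, 384 and 197 CPM against 2314 CPM over the 9 regions (-1.95 ± 0.28, edgeR adjusted p 2.86e-07), although higher than in cerebellum, at 123 CPM. SLC1A3 was also lower (-1.18 ± 0.23, edgeR adjusted p 3.91e-05). Over the list, 3 of 14 tested genes were called higher and 2 lower, against 9.78% and 9.26% of all genes, with ALDH1L1, a general astrocyte enzyme, at 0.01 ± 0.14. AQP4, the water channel of astrocyte endfeet, was called at 1.09, but not without sheep 688 (0.82), without the cerebellum (0.94) or with the regions summed (0.92).

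None of the 12 microglia, 10 endothelial and 10 mural genes was called, and summed levels of all 3 in pons lay inside the range of the other libraries. Among 11 choroid plexus and ependymal genes 6 were called higher. Without sheep 690 the count was 4, without sheep 694 it was 4 higher and 1 lower, and with the regions summed 1 of the 11 was called. TTR, the transport protein of choroid plexus, stood at 44.4, 42.6, 297, 1136 and 13.5 CPM and its call (2.35 ± 0.88, edgeR adjusted p 0.0236) ended without sheep 690 (1.61, adjusted p 0.219) or sheep 694 (1.54, adjusted p 0.232). FOXJ1, the factor of ciliated ependymal cells, stood at 1.12, 2.53, 42.1, 29.8 and 5.29 CPM (3.10 ± 0.72, edgeR adjusted p 0.000414), not called without sheep 690. With the regions summed FOXJ1 gave 0.85 (adjusted p 0.538) and TTR 0.07 (adjusted p 0.939). The whole list summed to 67.9, 67.7, 393, 1251 and 42.2 CPM, highest in sheep 694 and then 690, and the part of these genes in the other results of both animals was not tested. CLDN2, a junction protein of choroid plexus, was at 0.0390 to 2.88 CPM in pons.

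**Figure D4:**
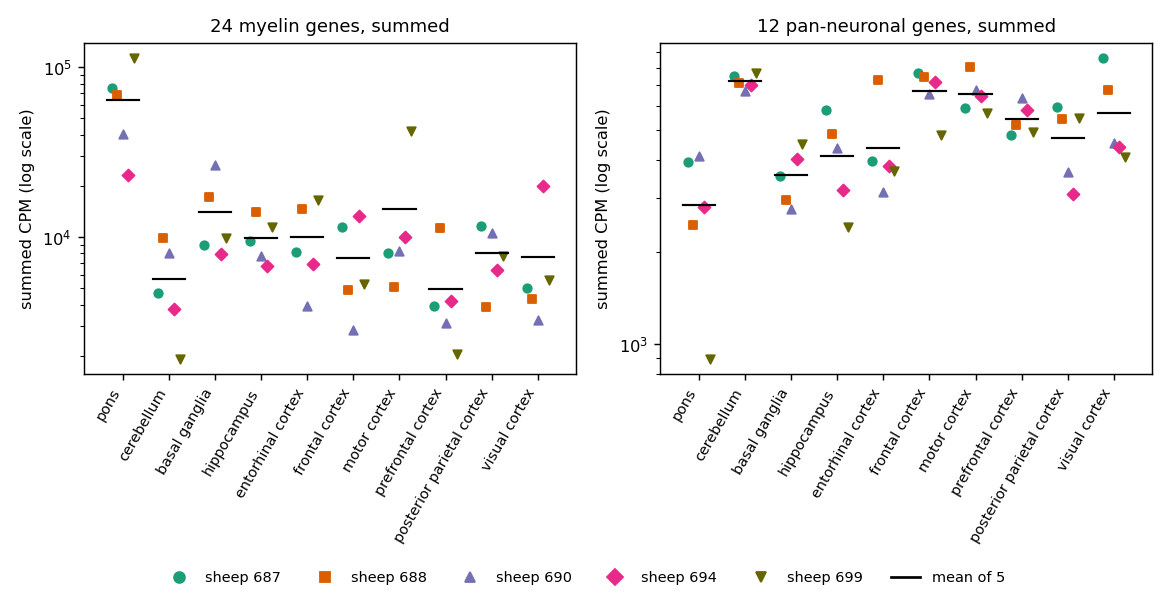
Summed CPM (log axes) of the 24 myelin genes (left) and the 12 pan-neuronal genes (right) in each region, with 1 symbol for each sheep and a bar for the mean of 5. Pons holds the highest mean of the myelin genes, from 23127 CPM in sheep 694 to 113607 in sheep 699, and sheep 699 holds the lowest pan-neuronal sum, 894 CPM.

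Several genes shared by most neurons were lower in pons. Of 12 pan-neuronal genes, 6 were called lower and none higher, at a median log2 fold change of -1.01, and 4 were called without sheep 699. Their sum ran from 2409 to 8626 CPM in the libraries of the other regions. Only sheep 699, at 894 CPM, lay below that range, and the other pons libraries, at 2454 to 4105 CPM, lay within it. SYT1, the calcium sensor of transmitter release, stood at 248, 133, 86.3, 218 and 80.0 CPM, against region means of 439 to 1047 CPM (-2.32 ± 0.25, edgeR adjusted p 5.47e-10). RBFOX3, the nuclear antigen NeuN, stood at 63.1, 18.8, 16.4, 27.9 and 6.48 CPM (-2.50 ± 0.31, edgeR adjusted p 1.41e-08). Both were lower than each of the 9 regions. STMN2 and UCHL1, which are abundant in projection neurons, were not called (0.11 ± 0.22 and 0.03 ± 0.25), and both were highest in sheep 690. The part of this lower pan-neuronal level in the other neuronal results was not tested.

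Markers of forebrain excitatory neurons were lower. Of 16 cortical and hippocampal genes 11 were called lower and none higher, at a median log2 fold change of -3.31. CAMK2A, a kinase of excitatory synapses, stood at 51.3, 45, 11.5, 142 and 16.0 CPM against 2046 CPM over the 9 regions (-4.91 ± 0.39, edgeR adjusted p 3.42e-13). NRGN, a calmodulin-binding protein of dendrites, stood at 5.39, 8.59, 5.62, 128 and 10.3 CPM (-4.49 ± 0.63, edgeR adjusted p 1.24e-07). Sheep 694 was the highest of the 5 for both, and without it the values were -5.70 and -6.29. Of 18 AMPA, NMDA and kainate receptor subunits 6 were called lower and 2 higher, at a median of -0.54. GRIN2A and GRIN2B, the forebrain NMDA subunits, gave -3.32 ± 0.34 and -3.08 ± 0.26 (edgeR adjusted p 2.00e-10 and 2.26e-12). GRIN3B, an NMDA subunit of motor neurons, was higher than each region at 5.30, 6.30, 21.6, 0.517 and 4.39 CPM (4.36 ± 0.31, edgeR adjusted p 1.16e-14, and 3.41 without sheep 690). GRIN2C, the other called higher (1.78), had a mean of 3.72 CPM in pons and 123 CPM in cerebellum and turned to -2.38 with the regions summed.

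Of 14 muscarinic and nicotinic receptors tested 8 were called lower and 2 higher. CHRM1, the muscarinic receptor of cortex and hippocampus, stood at 0.957, 3.38, 2.03, 4.02 and 0.312 CPM against 76.3 CPM over the 9 regions, below every other library (-4.92 ± 0.39, edgeR adjusted p 3.84e-13). The rule for named genes picked CHRM1 from genes whose pons libraries lie below all others, so that separation is no result. CHRM2, the receptor on brainstem and cholinergic neurons, was higher at 24.2, 12.3, 18.7, 9.10 and 1.62 CPM (1.26 ± 0.30, edgeR adjusted p 0.000555), though not without sheep 687 (0.86). None of 13 serotonin receptors tested was called higher and 4 were called lower, HTR3A among them, at -4.36 ± 0.52 (edgeR adjusted p 4.42e-09). Of 20 fast-spiking and nodal channel genes 7 were called lower and none higher. SCN2A, a sodium channel of unmyelinated axons, gave -2.50 ± 0.29 (edgeR adjusted p 3.14e-09), while SCN8A, the channel of nodes of Ranvier, was not called (-0.95 ± 0.25, edgeR adjusted p 0.00145).

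Matrix genes moved in both directions. HAPLN2, a link protein of the nodal matrix, stood at 236, 193, 149, 90.8 and 379 CPM and was higher than each region (2.81 ± 0.31, edgeR adjusted p 1.15e-09). SPP1, or osteopontin, stood at 364, 312, 280, 122 and 535 CPM (2.28 ± 0.29, edgeR adjusted p 1.40e-08), highest in sheep 699 and lowest in sheep 694. HAPLN1, a link protein of perineuronal nets, was called lower (-1.11 ± 0.27, edgeR adjusted p 0.000706), but not without sheep 690 (-0.90). Of the 12 matrix genes 4 were called higher and 3 lower, against 9.78% and 9.26% of all genes.

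Among 27 tested neuropeptide genes 6 were higher and 9 lower by the test, at a median of -0.40. Peptides of cortical interneurons were among the lower: VIP stood at 0, 0.0199, 0.963, 0.0172 and 0.0390 CPM against 28.4 CPM over the 9 regions (-5.74 ± 0.58, edgeR adjusted p 1.26e-10), and without sheep 690 it was -8.85. Without sheep 687 VIP gave -4.98 without a call, which may be a failed test. CORT gave -4.92 ± 0.38 (edgeR adjusted p 1.98e-13) and CCK -4.18 ± 0.57 (edgeR adjusted p 9.29e-08, and -5.59 without sheep 694). SST, also made by brainstem neurons, ran from 0.233 CPM in sheep 687 to 210 CPM in sheep 690 and was not called (-0.95 ± 0.57, edgeR adjusted p 0.166). ADCYAP1, the peptide PACAP, stood at 26.8, 11.1, 108, 40.0 and 2.01 CPM, and its call (1.91 ± 0.48, edgeR adjusted p 0.00104) ended without sheep 690 (1.26, adjusted p 0.068). TRH, the thyrotropin-releasing peptide, stood at 26.3, 10.8, 26.8, 3.90 and 0.917 CPM (3.57 ± 0.54, edgeR adjusted p 6.59e-07), but at 20.0 CPM in cerebellum, and with the regions summed it was not called (1.33, adjusted p 0.265).

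The rule for named genes also picked genes outside these lists. In its higher part, ordered by fold among genes whose 5 pons libraries exceed all others, stood CYP24, EMILIN2, VEPH1, HKDC1, ANGPTL7, AGMO, CP and C25H10orf105, with IRX2, GLRA1, FOXB1 and UGT8 given above. For genes picked this way the separation from the other libraries is no result. CYP24, under that name in the sheep table (a vitamin D hydroxylase carries this name), was even across animals at 7.98, 7.77, 9.12, 7.67 and 11.4 CPM, against at most 5.71 CPM elsewhere (4.68 ± 0.37, edgeR adjusted p 3.19e-13). EMILIN2, an extracellular matrix glycoprotein, stood at 20.9, 31.7, 9.30, 9.71 and 25.8 CPM, and its range over the other libraries ended at 5.39 CPM (4.13 ± 0.29, edgeR adjusted p 1.04e-14). HKDC1, a hexokinase family member, stood at 6.74, 9.48, 8.14, 6.38 and 10.2 CPM (3.79 ± 0.26, edgeR adjusted p 5.13e-15). CP, the copper-carrying ferroxidase ceruloplasmin, stood at 54.7, 66.6, 28.1, 27.1 and 93.7 CPM, highest in sheep 699 (2.96 ± 0.30, edgeR adjusted p 1.61e-10). VEPH1, ANGPTL7, AGMO and C25H10orf105 gave 3.82, 3.75, 3.20 and 4.44. All of these were called against each region except C25H10orf105, which was not called against hippocampus, and all were called in every fit that left out 1 sheep. The rule picked them for large folds without overlap in these same libraries, so these calls are no separate result.

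In the part of the rule on every single region, PRPH, CALCA, FOXB1, MGAM, GLRA1 and TM4SF4 came out as higher. TM4SF4, a tetraspanin-like membrane protein, stood at 0.187, 0.577, 30.1, 0.534 and 0.117 CPM. It was a feature of sheep 690, without which the log2 fold change of 4.90 ± 0.79 (edgeR adjusted p 1.87e-06) became 1.29 (adjusted p 0.109).

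Among the lower genes of the rule, ITPKA, a kinase of dendritic spines that phosphorylates inositol trisphosphate, stood at 0.117, 0.338, 0.649, 0.638 and 0.293 CPM against 28.8 CPM over the 9 regions and at least 6.18 CPM in any other library (-5.93 ± 0.50, edgeR adjusted p 1.47e-12). KCNF1 and KCNH3, potassium channel subunits, gave -5.56 ± 0.66 and -5.51 ± 0.34 (edgeR adjusted p 3.86e-09 and 5.11e-16), or -6.36 and -6.30 without sheep 694. ADCY1, a calcium-stimulated adenylate cyclase, stood at 40.4, 40.9, 22.8, 44.1 and 7.11 CPM against 587 CPM (-4.16 ± 0.40, edgeR adjusted p 4.48e-11). HPCA, the calcium sensor hippocalcin, and SYNPR, the vesicle protein synaptoporin, gave -4.86 ± 0.65 and -4.22 ± 0.48 (edgeR adjusted p 5.64e-08 and 1.62e-09), or -5.97 and -5.16 without sheep 694. PTK2B, GDA, ISLR2, RTN4RL2, EGR4 and NEURL1B gave -4.36, -5.29, -4.42, -4.51, -5.28 and -4.07, with EGR4 at -6.27 without sheep 694. The rule took the 12 of largest decrease, CHRM1 among them, from genes whose pons libraries all lay below the others. That separation is therefore no result. NEURL1B came instead from the part of the rule on every single region.

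The study set brain beside reproductive tissue, and genes of the reproductive axis were present at low levels in pons. Of 20 tested, 4 were called higher and 3 lower, against 9.78% and 9.26% of all genes. PGR, the progesterone receptor, stood at 4.01, 4.75, 5.90, 6.31 and 5.58 CPM (1.54 ± 0.31, edgeR adjusted p 7.12e-05). PGR overlapped the other libraries and was not called against hippocampus, entorhinal cortex or posterior parietal cortex. ESR2, an estrogen receptor, was lower at 0.210, 0.338, 0.728, 1.60 and 0.332 CPM against 4.98 CPM (-2.67 ± 0.46, edgeR adjusted p 6.17e-06, and -3.29 without sheep 694), while ESR1 was not called (0.49 ± 0.39, edgeR adjusted p 0.292). GNRH1 and NPVF did not pass the low-count filter.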

How the data were processed

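RNA of 10 brain regions from each of 5 sheep was sequenced. Per the labels' protocols, RNA was taken with TRIzol and DNase I, libraries were made with a stranded Kapa mRNA kit, and reads were 150 bp pairs from a NovaSeq X Plus. Per the series' design text, Trimmomatic v0.39 removed adapters, the aligner was STAR v2.7.5a on the sheep assembly ARS-UI_Ramb_v3.0, and Rsubread v2.20.0 gave the counts. The submitters' processing notes also list DESeq2, with no role. The values used are the raw counts per gene that the authors deposited, not normalized. The sources used here do not give strand or multimapping settings, so overlapping genes and close paralogs are uncertain.

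Counts were analysed in R 4.3.3. After 4 placeholder entries were left out of totals, genes were filtered by edgeR's filterByExpr with region as group, scaled by TMM and tested with edgeR 4.0.16 (glmQLFit and glmQLFTest, region plus sheep), pons minus the mean of 9 region coefficients, and against each region. Fold changes use a prior count of 0.125, and standard errors were derived from the F statistic. A call needs a Benjamini-Hochberg adjusted p under 0.05 over all genes tested and a log2 fold change of 1 or more in either direction. For genes with no counts in a whole region the fitted fold depends on the prior count, so CPM and the fit on summed regions are given. Of such genes, 51 had a log2 fold change past 1 in size with an edgeR p above 0.9. These may be failed tests, and they count as not called. The sheep number pairs the libraries because the labels give the same animal: deviations from region means correlated at a median of 0.207 within a sheep and -0.0563 between sheep, and 30 of 45 pairs of pons with another region of its sheep were over 0.1 (median 0.152, from -0.157 to 0.342).

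The genes named are the 3 markers, the members of gene lists, for each direction the 12 called genes of largest fold among those of at least 5 CPM whose pons libraries do not overlap the others, and the 6 per direction with the largest smallest fold over the 9 regions, without placeholder symbols. Some genes are not reported here. The members and lists were chosen with earlier results of these data known. Alternatives were RLE (relative log expression) and upper quartile factors, other filters, limma 3.58.1 (voom), DESeq2 1.42.0, no sheep block, summed regions, the 4 entries kept, the cerebellum left out, a larger fold and each sheep left out. There were 0 other columns of per-sample values. With 46.3 to 53.4 M counts in pons, 3 counts are under 0.1 CPM, and this covers counting error only.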

Additional observations from a re-analysis of the deposited data

Results flagged for a closer look

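In 37 of 171 genes examined, 1 of the 5 pons libraries lay apart from the rest: its gap to the nearest of the other 4 was more than 0.71 of the whole range, the 95% critical value. Chance flags about 1 in 20 groups if values follow a normal distribution, which was not checked for these CPM values. The far library was that of sheep 694 for 22 genes, sheep 690 for 11, sheep 687 for 2 and sheep 699 for 2.

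In sheep 694, regional transcription factors stood apart at 26.3 CPM for EN2, 6.57 for GATA3, 27.4 for LHX9, 1.52 for SOX14, 12.9 for SIX3, 0.0345 for DLX1, 8.26 for LHX2, 2.28 for EMX2, 7.33 for BCL11B and 42.1 for MEF2C. DLX1 is flagged on fewer than 3 counts there, with no counts in the other pons libraries. Receptor and peptide genes of the same library were at 87.2 CPM for GABRB2, 131 for GRIA2, 13.7 for CCK and 10.1 for NPY. Other genes apart in sheep 694 were CSPG5 at 60.8 CPM, TTR at 1136, EGR3 at 3.88, NRGN at 128, KCNH3 at 4.07, GDA at 2.10, HPCA at 21.4 and NEURL1B at 8.81.

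In sheep 690, motor and axon genes stood apart at 61.6 CPM for CHAT, 68.1 for SLC18A3, 375 for PRPH, 8.42 for ISL1, 3245 for NEFH, 6089 for NEFM and 21.6 for GRIN3B. HOXB4 was at 14.5 CPM, TM4SF4 at 30.1, VIP at 0.963 and KCNV1 at 1.53 in that library. In sheep 687, SLC17A7 was at 113 CPM and GABRD at 23.6 CPM. In sheep 699, OPALIN was at 1153 CPM and DLX2 at 0.0195 CPM. DLX2 is likewise flagged on fewer than 3 counts, with no counts in the other pons libraries.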

How the results depend on the processing

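The number of genes called, 4026, was 3709 to 4329 with 1 sheep left out, with 1871 to 2074 higher and 1679 to 2313 lower. Genes called against each of the 9 regions then numbered 382 to 535 higher and 245 to 494 lower. Without the replicate block 3945 genes were called, 2029 higher and 1916 lower, of which 3862 were called in the same direction with it, and no named gene lost its call. A log2 fold change of at least 2 left 1121 genes, 559 higher and 562 lower. Upper quartile factors, which moved the median of all genes to 0.123, gave 2348 higher and 1754 lower. DESeq2 called 4359 genes and limma voom 3964. Among the 171 genes examined, those that lost their call but kept their direction were counted for each setting. They numbered 31 with the 9 regions summed, 6 without sheep 690, 5 without 687 and 4 without the cerebellum. Limma voom gave 4, and there were 3 without 688, 3 without 694 and 1 without 699. Genes whose direction turned, given below, are not in these counts. The 5 without sheep 687 include DLX2 (-7.42), EMX2 (-3.65) and VIP (-4.98), where the test may have failed. Direction turned for SIX3 without sheep 694 (-1.67, against up to 3.36 without sheep 690), and with the regions summed for EN2 (-3.02), PAX3 (-0.13), SIX3 (-5.04), LHX1 (-1.22), GABRA6 (-4.70), GRIN2C (-2.38), DRD2 (-0.48), FAT2 (-3.26) and ZIC1 (-2.33). In that fit a region with a high level weighs more. Each value rests on 5 animals, and genes at a few counts are limited by depth.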

Other observations

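Activity-dependent immediate early genes were lower in pons. Of 16 tested, 8 were called lower and none higher, at a median log2 fold change of -1.13. EGR3, a transcription factor induced by synaptic activity, stood at 1.05, 0.895, 0.354, 3.88 and 0.742 CPM in sheep 687, 688, 690, 694 and 699, against 40.6 CPM over the 9 regions (-4.44 ± 0.42, edgeR adjusted p 2.75e-11, and -5.23 without sheep 694). NPAS4, a factor specific to neurons, was lower than each region at 2.29, 0.974, 0.511, 2.24 and 0.586 CPM (-2.24 ± 0.35, edgeR adjusted p 1.01e-06). FOS and JUN, which other cells also induce, were not called (0.96 ± 0.37 and 0.09 ± 0.15). FOS lay near the fold threshold. It was called higher with upper quartile factors (1.04), without the sheep block (1.04), without sheep 690 (1.16) and without sheep 694 (1.11). With the regions summed FOS was not called (0.80, edgeR adjusted p 0.0877).

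Of 12 heat shock genes tested, 3 were called higher and none lower, against 9.78% and 9.26% of all genes. Of these 3, CRYAB is also counted among the myelin genes above. BAG3, a co-chaperone of protein quality control, stood at 63.3, 74.6, 107, 50.8 and 48.1 CPM, all above the highest other library (42.3 CPM), a log2 difference of 2.01 ± 0.13 (adjusted p 1.11e-15 in edgeR). BAG3 was called above 8 regions but not above cerebellum. HSPA1A, the inducible HSP70, stood at 332, 225, 349, 325 and 599 CPM (1.2 ± 0.17, edgeR adjusted p 1.18e-07), and sheep 688 alone lay within the range of the others. HSPA8 was listed at 0 counts in all libraries.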
